A study of Arabidopsis thaliana with 72 samples.

Results

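WRKY proteins form a large plant family of transcription factors named for a conserved peptide motif, which binds, together with a zinc finger, to W box elements in promoters. Members act in defence against pathogens, in leaf senescence and in responses to nutrient shortage and other stresses, and many of their genes are themselves induced within a short time of a stimulus. The family members described here are the probe sets paired with exactly 1 gene whose symbol in the array annotation is WRKY followed by a number. There were 6 such probe sets among 13513 probe sets with 1 symbol: WRKY6, WRKY20, WRKY22, WRKY42, WRKY47 and WRKY53. A further 8794 probe sets had no entry in the annotation table, and RefSeq's gene table (assembly TAIR10.1) lists 72 genes of the family, so the 6 are a small part of it.

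The study exposed 10-day-old plants of Arabidopsis thaliana, ecotype Wassilewskija, to a total pressure of 10 kPa with 2.1 kPa oxygen or to 97 kPa with 21 kPa oxygen, for 1, 3, 6, 12, 48 or 72 h in constant light. Carbon dioxide was held at 0.05 kPa at both pressures and nitrogen made up the balance, so total pressure and oxygen changed together and cannot be told apart. Roots and shoots (the whole aerial part, hypocotyl included) were dissected from about 12 pooled plants per chamber, and each of the 24 groups of tissue, pressure and time held 3 arrays from separate chambers, 72 arrays in all. The labels name no transgene or mutation.

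Expression was read on ATH1 arrays as MAS5 signal, a linear intensity per probe set with the same trimmed mean of 500 on every array. Changes are given as log2 differences of signal plus 8.90, so that those of dim probe sets are understated, and they were tested by limma with Benjamini-Hochberg adjustment over all probe sets tested; "rose" and "fell" mark an adjusted p below 0.05. Levels of different probe sets are not set against each other. The arrays of the 2 tissues were separated by their markers: the median signal of 7 photosystem and antenna genes was 15046 to 26970 in shoots and 314 to 2294 in roots, and that of 2 root genes was 103 to 653 in roots and 7.06 to 77.9 in shoots. Since tissues were measured whole, fewer cells of a type and less RNA per cell cannot be told apart. Array numbers ran with pressure, apart from 4 arrays of 72 h, so the order of array handling and the pressure cannot be told apart. In roots, 22 of 23 tested genes of a low-oxygen list rose at 1 h, with a median log2 difference of 3.80, against -0.02 for all 16667 probe sets tested. In shoots 17 of the 23 rose at 1 h, with a median of 2.02, against 0.04 over 15794 probe sets. Late in shoots 9 rose and 3 fell at 48 h (median 0.24), and 5 rose and 8 fell at 72 h (median -0.40). Late in roots 19 rose at 48 h and 11 at 72 h, and 0 fell at either time. The shoot pressure difference at 48 and 72 h against 1 and 3 h fell for 16 of the 23 and rose for 0. Its median was -1.78, against -0.06 for all probe sets tested.

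WRKY42 did not reach the 40th percentile of its array on any of the 72 arrays and was not tested. It encodes a group IIb protein known to repress the phosphate exporter gene PHO1. Its signal ranged from 2.81 to 156 in roots and from 2.46 to 58.2 in shoots. The 3 shoot values at 3 h lay higher at 10 kPa than at 97 kPa and those at 12 h lay lower, both at signals where low values scatter widely. The other 5 members were tested in both tissues. WRKY22 had passed the 40th percentile on 24 of 36 root arrays, 8 of them at 97 kPa, and WRKY6 on 21 of 36 shoot arrays, so neither entered only through the pressure at which it was higher.

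**Figure D1:**
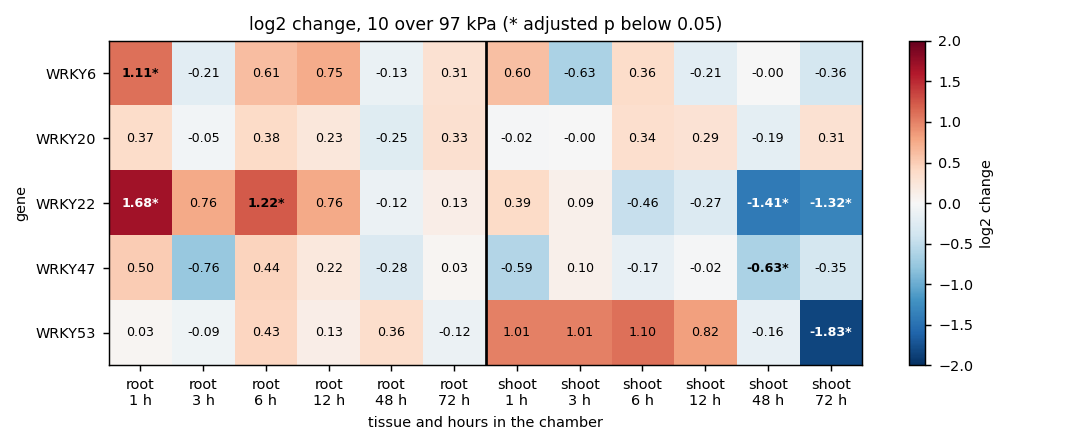
Log2 difference of signal between 10 and 97 kPa (colour and number) for the 5 tested members (rows) in roots and shoots at each time (columns); an asterisk marks an adjusted p below 0.05. The called increases lie in roots at 1 and 6 h, and the called decreases lie in shoots at 48 and 72 h.

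In roots WRKY22 rose at 10 kPa at 1 and 6 h, and WRKY6 rose at 1 h. WRKY22 encodes a group IIe factor known from innate immune signalling downstream of a MAP kinase cascade and from the response to submergence. In roots at 1 h its signal was 335, 532 and 324 at 10 kPa and 166, 147 and 60.6 at 97 kPa. All 3 values at 10 kPa lay above all 3 at 97 kPa, and the log2 difference was 1.68 (SE 0.39, n = 3 per group; limma adjusted p = 0.0076), about 3.20-fold. At 1 h 2 of the 5 tested members rose and 0 fell, and 3.56% of all tested probe sets were called. The call of WRKY22 was lost without the third replicate at 97 kPa, the lowest of its group (adjusted p = 0.123), or without the second replicate at 10 kPa, the highest (adjusted p = 0.0782).

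The same order of the groups recurred at the next 3 times. At 3 h WRKY22 read 204, 210.2 and 254 in roots at 10 kPa and 139, 164 and 88.8 at 97 kPa, and the log2 difference of 0.76 (SE 0.39) did not pass the test. At 6 h it read 292, 320.1 and 282 against 121, 201 and 74.9. These 6 values gave a log2 difference of 1.22 (SE 0.39, limma adjusted p = 0.041), the 1 call among the members at 6 h, where 9.19% of all tested probe sets were called. It was lost in 7 of 17 alternatives, among them leaving out any array of the comparison other than the second at 97 kPa (adjusted p up to 0.232). At 12 h it read 231, 195 and 158 against 77.1, 148 and 117, with a log2 difference of 0.76 that did not pass.

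At each of 1, 3, 6 and 12 h all 3 root values of WRKY22 at 10 kPa thus lay above all 3 at 97 kPa, as in 329 of 16667 tested probe sets (1.97%). At 48 and 72 h the groups overlapped and the log2 differences were -0.12 and 0.13. Over the 4 early times the mean difference of WRKY22 in roots was 1.10 (SE 0.19, limma adjusted p = 3.48e-05). This mean was added after the values were seen, and 25.5% of all tested probe sets were called in it. The early and the late pressure differences of WRKY22 in roots (48 and 72 h against 1 and 3 h) differed by -1.22, which did not pass at an adjusted p of 0.059, nor did any other member, where 5.18% of all tested probe sets passed and 1 member had an unadjusted p below 0.05. It passed without any 1 of 4 arrays (the first control array of 1 or 48 h, or the third at 10 kPa of 48 or 72 h), at an adjusted p down to 0.0298.

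WRKY6 encodes a group IIb factor known from senescence, pathogen responses and the repression of PHO1. In roots at 1 h it read 876, 1408 and 1111 at 10 kPa and 823, 412 and 393 at 97 kPa. The groups did not overlap, although the lowest value at 10 kPa was only slightly above the highest at 97 kPa. The log2 difference was 1.11 (SE 0.26, limma adjusted p = 0.0089), and the call was lost without the second or the third replicate at 97 kPa (adjusted p = 0.0815 and 0.0983) or without the second at 10 kPa (adjusted p = 0.089).

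At 6 h WRKY6 read 928, 929 and 938 in roots at 10 kPa and 684, 701 and 466 at 97 kPa, a log2 difference of 0.61 that did not pass. At 12 h it read 719.6, 1161 and 913 against 700.3, 477 and 473, with a log2 difference of 0.75 at an adjusted p of 0.054, which passed without the first replicate at 97 kPa (0.0311) or at 10 kPa (0.0377). The groups did not overlap at either time, whereas at 3 h they did, with a log2 difference of -0.21. Over 1 to 12 h the mean difference was 0.56 (SE 0.13, limma adjusted p = 0.0011). At 3 h and 12 h 0 of the 5 members were called by limma, 1 at each time had an unadjusted p below 0.05, and 6% and 12% of all tested probe sets were called. At 48 and 72 h in roots again 0 members were called, 0 had an unadjusted p below 0.05, and 11.5% and 8.16% of all tested probe sets were called.

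Tissue markers also moved in the early root arrays. The median signal of the 7 photosystem and antenna genes was 880 ± 303 (SD, n = 3) at 10 kPa and 593 ± 107 at 97 kPa at 1 h, and 405 ± 87.5 against 619 ± 24.9 at 3 h. It was 549 ± 39.1 against 509 ± 159 at 6 h and 975 ± 541 against 521 ± 50.3 at 12 h. Its group mean was thus higher at 10 kPa at 1, 6 and 12 h, where the arrays of the 2 pressures overlapped. It was lower at 3 h, without overlap. In the mean over 1 to 12 h 1 of the 7 genes rose and 1 fell. Of 17 root genes on the marker list only 2 had a named probe set, the root hair expansins EXPA7 and EXPA18. Both fell in the mean over 1 to 12 h, by 0.94 (limma adjusted p = 0.00021) and 0.54 (adjusted p = 0.036). Their median signal was 329 ± 26.9 at 10 kPa and 315 ± 52.6 at 97 kPa at 1 h, 154 ± 44.6 against 519 ± 117 at 3 h, 294 ± 94.6 against 399.7 ± 49.2 at 6 h and 276 ± 188 against 399 ± 54.5 at 12 h. The part of these markers in the differences of WRKY22 and WRKY6 was not tested.

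**Figure D2:**
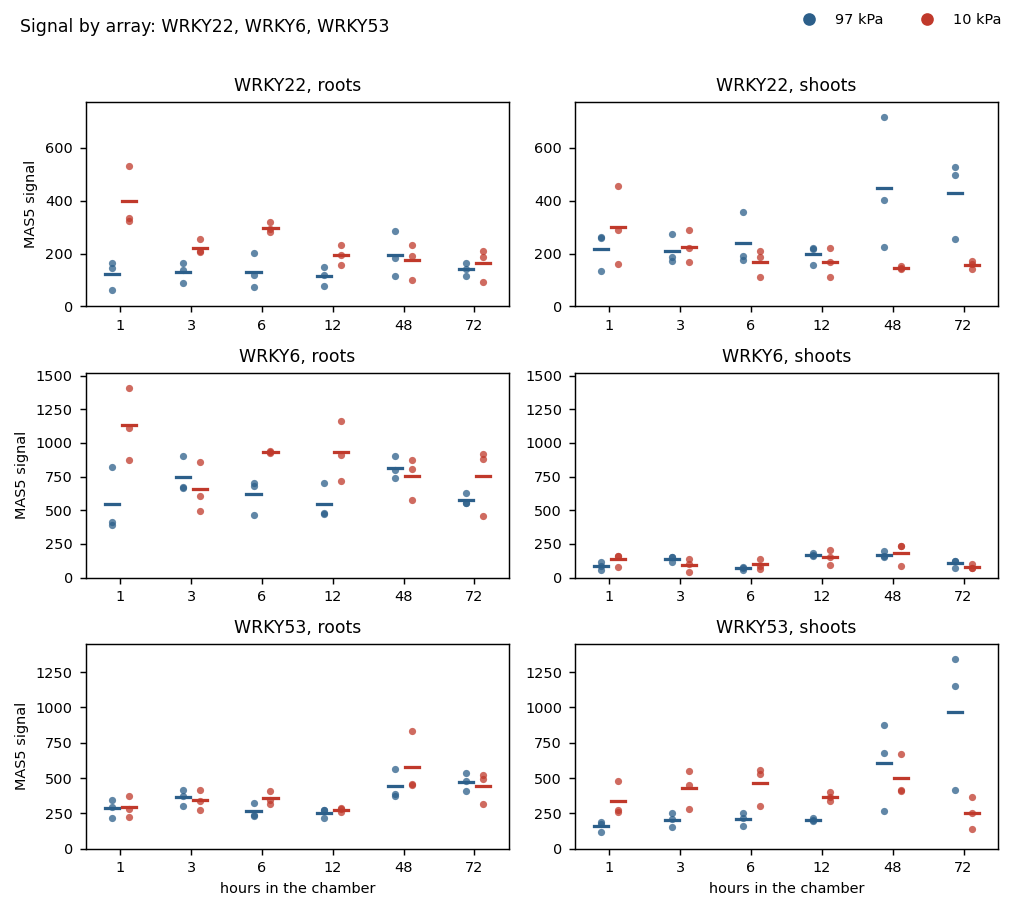
MAS5 signal (linear vertical axis) of WRKY22, WRKY6 and WRKY53 (rows) in roots and shoots (columns) against hours in the chamber, with 1 point per array and a bar at the mean of each group of 3. In roots the points of WRKY22 at 10 kPa lie above those at 97 kPa from 1 to 12 h, and in shoots those of WRKY53 do so over the same times and lie below them at 72 h.

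In shoots WRKY53, a group III factor known as a regulator of leaf senescence, was higher at 10 kPa from 1 to 12 h and lower at 72 h. At 1 h it read 273, 477 and 256 at 10 kPa and 114, 187 and 174 at 97 kPa. At 3 h it read 454, 546 and 282 against 211, 249 and 154. At 6 h it read 558, 526 and 303 against 157, 214 and 251, and at 12 h 335, 367 and 403 against 201, 196 and 216. At all 4 times the values at 10 kPa lay above those at 97 kPa without overlap, as in 281 of 15794 tested probe sets (1.78%).

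The log2 differences of WRKY53 in shoots were 1.01, 1.01, 1.10 and 0.82 at 1, 3, 6 and 12 h (SE 0.38 each), and none passed alone, with adjusted p of 0.137, 0.126, 0.0543 and 0.223 from limma. In the fit without the 48 and 72 h arrays, which was added after the data were seen, all 4 passed (adjusted p = 0.0208, 0.0189, 0.00528 and 0.0482). The share of all probe sets called in that fit was not counted. It left out the control groups of 48 and 72 h, whose WRKY53 signals had SDs of 312 and 492. The SDs of the early shoot groups were 10.6 to 139. The difference at 6 h also passed without the third replicate at 10 kPa (adjusted p = 0.0322). Over the 4 times together the mean difference, also added, was 0.98 (SE 0.19, limma adjusted p = 0.000142), and 25.8% of all tested probe sets were called in it. At these times limma called 0 members in shoots, and 2, 1, 1 and 1 members had an unadjusted p below 0.05. Of all tested probe sets 4.36%, 5.4%, 11.7% and 7.41% were called. In roots WRKY53 differed by 0.03, -0.09, 0.43 and 0.13 at the same times.

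Photosystem and antenna genes were lower in some of the same shoot groups. Of the 7, 5 fell and 0 rose at 1 h, 2 fell and 0 rose at 3 h, 1 fell and 1 rose at 6 h, 1 fell and 0 rose at 12 h, and 3 fell and 0 rose in the mean over 1 to 12 h. Their median signal at 1 h was 16955 ± 373 (SD, n = 3) at 10 kPa and 24295 ± 79.4 at 97 kPa, without overlap. It was 23380 ± 2208 against 26665 ± 473 at 3 h, 23168 ± 2748 against 23235 ± 2645 at 6 h and 21378 ± 1516 against 23021 ± 1216 at 12 h. The part of these genes in the difference of WRKY53 was not tested.

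At 72 h in shoots WRKY53 read 252, 142 and 366 at 10 kPa and 412, 1343 and 1155 at 97 kPa. Every value at 10 kPa lay below every value at 97 kPa, and WRKY53 fell by 1.83 on the log2 scale (SE 0.38, limma adjusted p = 0.00064). At 48 h it read 414, 408 and 673 against 268, 879 and 680.03, groups that overlapped, with a log2 difference of -0.16. The pressure differences at 48 and 72 h against 1 and 3 h differed by -2.01 (SE 0.38, limma adjusted p = 0.00033), a call kept in all 33 alternatives, where 18.2% of all tested probe sets were called.

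Most of that difference between times lay in the control plants. At 97 kPa WRKY53 in shoots rose by 1.90 from 1 and 3 h to 48 and 72 h (SE 0.27, limma adjusted p = 3.6e-06), whereas the means at 10 kPa differed by -0.10, which was not tested. At 97 kPa 22.5% of all tested probe sets were called between these times. The control arrays of 1 and 3 h carried a separate run of array numbers from those of 48 and 72 h, so time and number run cannot be told apart there. In the same shoots at 97 kPa, 20 of 23 genes of the low-oxygen list rose late, with a median of 1.64 against 0.04 for all tested probe sets. Of 2 tested genes of an early defence list, STZ, a zinc finger repressor of stress responses, rose by 1.28. The other, BIK1, differed by -0.19 and did not pass.

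WRKY22 in shoots showed no early difference that passed, and it was lower at 10 kPa at the 2 late times. At 48 h it read 144, 153 and 143 at 10 kPa and 226, 404 and 717 at 97 kPa. At 72 h it read 162, 142 and 171 against 257, 529 and 497. The 3 values at 10 kPa were close together and lay below every control value, which spread widely. WRKY22 fell by 1.41 at 48 h (SE 0.36, limma adjusted p = 0.0044) and by 1.32 at 72 h (SE 0.36, adjusted p = 0.0085). The pressure differences of late and early times differed by -1.61 (SE 0.36, limma adjusted p = 0.002). At 97 kPa WRKY22 rose by 0.93 between these times (SE 0.26, limma adjusted p = 0.0076), and at 10 kPa the means differed by -0.67, untested.

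WRKY47, a further group IIb member, read 201, 145 and 156 in shoots at 10 kPa and 239, 315 and 236 at 97 kPa at 48 h. It fell by 0.63 (SE 0.22, limma adjusted p = 0.039), a call lost in 7 of 16 alternatives, including those without the second control replicate (adjusted p = 0.154) or the second or the third at 10 kPa (0.135 and 0.0902). At 48 and 72 h in shoots 2 of the 5 tested members fell and 0 rose at each time, where 23.7% and 19.8% of all tested probe sets were called.

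RNA quality moved with these late shoot groups. The 3′ to 5′ signal ratio of the GAPDH control was 83.5 ± 55.2 (SD, n = 3) at 10 kPa and 16.1 ± 8.18 at 97 kPa at 48 h, and 46.4 ± 8.94 against 13.3 ± 1.91 at 72 h. The photosystem marker median was 16086 ± 1024 against 23198 ± 3779 at 48 h, without overlap, and 17220 ± 2737 against 21897 ± 2564 at 72 h, and its part in the late differences was not tested. With such ratios, averaged on the log2 scale over the array's plant control probe sets, as a covariate added after the data were seen, the differences of WRKY22 at 48 and 72 h were -1.18 and -1.15 and did not pass (adjusted p = 0.279 and 0.166). That of WRKY53 at 72 h was -1.53 (adjusted p = 0.0654), and that of WRKY47 at 48 h was -0.94 (adjusted p = 0.138). In these groups the ratios of the 2 pressures did not overlap, so the covariate and the pressure cannot be told apart. With the covariate 230 of all tested probe sets rose and 258 fell at 48 h, against 1637 and 2113 without it. At 72 h 453 rose and 545 fell, against 1473 and 1657. The late against early difference of WRKY22 was also no longer called (-1.44, adjusted p = 0.0792), whereas that of WRKY53 was kept (-1.70, adjusted p = 0.0449). Over all tested probe sets that contrast rose for 334 and fell for 442 with the covariate, against 1220 and 1650 without it. In the control shoots, where both genes rose, the ratio of the 6 late arrays ran from 10.1 to 25.4 and that of the 1 and 3 h arrays from 11.9 to 16.2, and the rise was called with the covariate for WRKY53 and for WRKY22.

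The calls at 72 h also rested on arrays numbered apart. Without the 4 arrays of 72 h with numbers of their own, WRKY53 differed by -1.27 (adjusted p = 0.0502) and WRKY22 by -1.11 (adjusted p = 0.0972) in shoots. Between the 2 shoot arrays of that run, which held both pressures, WRKY53 read 142 at 10 kPa and 1155 at 97 kPa, and WRKY22 read 142 and 497. This single pair had no replicate. At 48 h the call of WRKY22 was lost without the third control replicate (adjusted p = 0.0604), and at 72 h without the second (adjusted p = 0.0559).

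**Figure D3:**
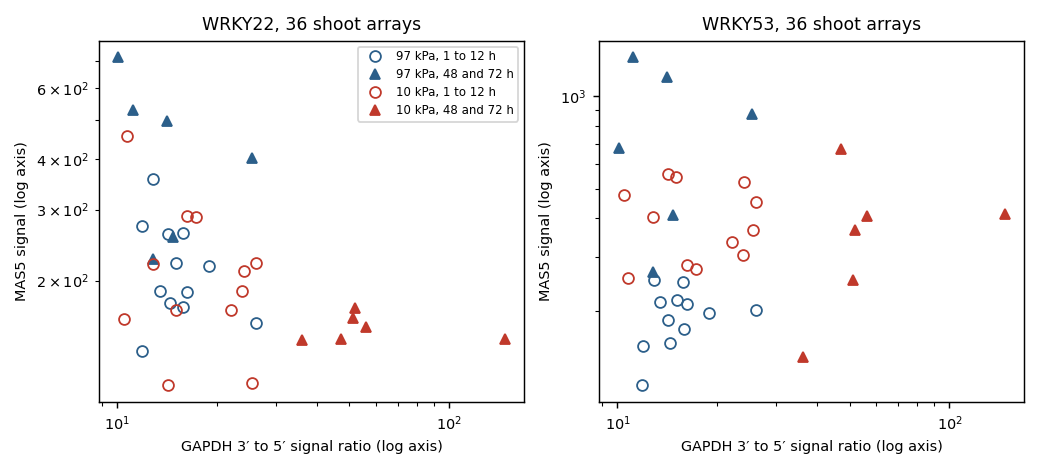
MAS5 signal of WRKY22 (left) and WRKY53 (right) against the GAPDH 3′ to 5′ signal ratio on the 36 shoot arrays, both axes logarithmic, with colour for pressure and filled triangles for 48 and 72 h. The 6 late arrays at 10 kPa lie at ratios of 36.1 to 147, to the right of every other shoot array, and the 6 late control arrays lie at 10.1 to 25.4.

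The response to pressure of WRKY22 differed between roots and shoots over all 6 times, and that of WRKY53 only over 1 to 12 h. Of 43 tubes of plants, 29 supplied roots and shoots alike, so arrays of the 2 tissues were not all independent, and with the tube as a random block (correlation 0.056) the same members were called. Over all 6 times the pressure difference of WRKY22 was larger in roots than in shoots by 1.23 (SE 0.22, limma adjusted p = 1.6e-05), the 1 call among 5 tested members, where 25.9% of 17901 tested probe sets were called. It was called in all 82 alternatives. For WRKY53 the difference between tissues over all 6 times was -0.20 (SE 0.19, limma adjusted p = 0.49) and did not pass. Over 1 to 12 h alone, a contrast added after the values were seen in which 19.5% of probe sets were called, WRKY22 differed by 1.17 (SE 0.27, adjusted p = 0.00104) and WRKY53 by -0.86 (SE 0.24, adjusted p = 0.00557) between roots and shoots. For WRKY6 the differences between tissues were 0.45 and 0.53 over these times, and neither passed.

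At 97 kPa the members also differed in level between the tissues. WRKY6 had a median of 669 in control roots (range 393 to 905, n = 18) and of 122 in control shoots (54.1 to 194), with no overlap. It was higher in roots by 2.35 on the log2 scale (SE 0.13, limma adjusted p = 1.1e-23). WRKY20, a group I member, had a median of 564 in roots (410.1 to 1008) and 377 in shoots (276 to 552), and was higher in roots by 0.60 (SE 0.08, adjusted p = 1.1e-09). WRKY22 was lower in roots, with a median of 141 (60.6 to 284) against 242 (134 to 717) and a log2 difference of -0.95 (SE 0.16, adjusted p = 2.4e-07). WRKY47 was higher in roots by 0.43 (SE 0.11, adjusted p = 0.0005), and WRKY53, with medians of 334 and 215, did not pass.

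In this comparison of levels 79.9% of all tested probe sets were called, and their median lay 0.34 higher in roots, or 0.10 after quantile normalization. Relative to that median WRKY6 lay higher in roots by 2.00, WRKY20 by 0.26 and WRKY47 by 0.09, and WRKY47 did not pass after quantile normalization (0.19, adjusted p = 0.126). Of all called probe sets 66.4% were higher in roots, and 55.7% after quantile normalization. The 3′ to 5′ ratio of GAPDH was 58.9 to 1312 in roots and 10.1 to 147 in shoots. With the ratio as a covariate WRKY6 (1.64) and WRKY20 (1.19) were still called, WRKY22 was not (-0.47, adjusted p = 0.594), and WRKY47 changed sign (-0.57, adjusted p = 0.3). In that fit 3692 of all tested probe sets were called higher in roots and 2234 lower, against 9492 and 4802 without the covariate.

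**Figure D4:**
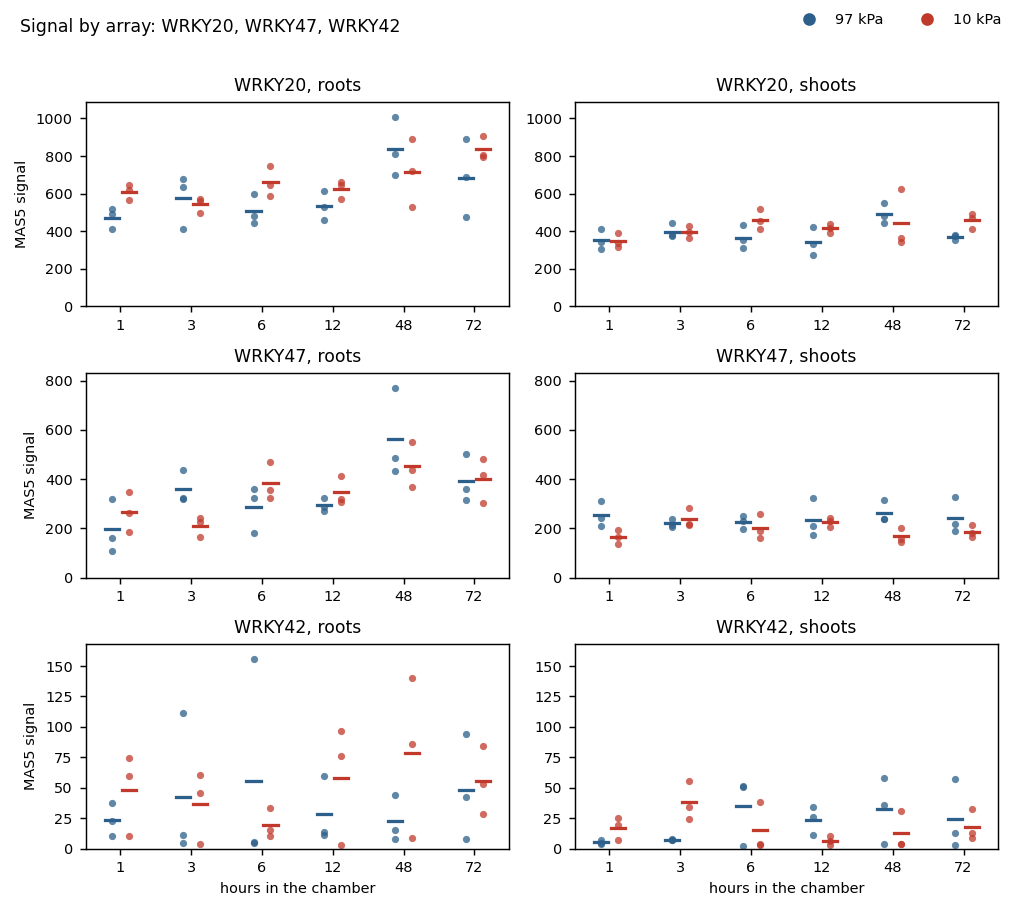
MAS5 signal (linear vertical axis) of WRKY20, WRKY47 and WRKY42 (rows) in roots and shoots (columns) against hours in the chamber, with 1 point per array and a bar at the mean of each group of 3. WRKY20 and WRKY47 lie higher in roots at 48 h than at 1 h at 97 kPa, and WRKY42 stays at 156 or less throughout.

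In roots WRKY20 and WRKY47 passed between late and early controls rather than between pressures. The control root arrays of 1 and 3 h also carried a separate run of array numbers from those of 48 and 72 h. Time and number run therefore cannot be told apart in this contrast. At 97 kPa WRKY47 read 318, 162 and 109 at 1 h, 319.7, 436 and 323 at 3 h, 487, 431 and 771 at 48 h and 359, 314 and 501 at 72 h. The late values were mostly the higher ones, and WRKY47 rose by 0.84 (SE 0.21, limma adjusted p = 0.0041). WRKY20 rose by 0.52 (SE 0.15, adjusted p = 0.0082) and WRKY53 by 0.50 (SE 0.18, adjusted p = 0.036). So 3 of 5 tested members rose and 0 fell, where 24.1% of all tested probe sets were called. The call of WRKY53 was lost in 9 of 21 alternatives, 6 of which left out 1 control array (the first or the third of 3 h, the first of 1, 48 or 72 h, or the second of 72 h), and that of WRKY47 with the ratio covariate (adjusted p = 0.378). Root arrays at 97 kPa also had a higher GAPDH ratio late (191 to 1312) than at 1 and 3 h (81.0 to 179). With the ratio covariate 852 of all tested probe sets rose and 1071 fell in this contrast, against 1912 and 2102 without it. The means at 10 kPa moved alike, by 0.84 for WRKY47, 0.40 for WRKY20 and 0.65 for WRKY53, which was not tested.

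In the pressure comparisons WRKY20 lay between -0.25 and 0.38 on the log2 scale in both tissues and passed at none of the 12. In roots at 1 h its values at 10 kPa (646, 566 and 619) lay above those at 97 kPa (517, 489.8 and 410.1), and in shoots at 72 h the same held, yet neither difference passed. WRKY47 in roots at 3 h read 241, 164 and 224 at 10 kPa and 319.7, 436 and 323 at 97 kPa, a lower level without overlap whose difference of -0.76 did not pass (limma adjusted p = 0.159). The GAPDH ratio of these root arrays was 62.9 to 89.4 at 10 kPa and 138 to 179 at 97 kPa, and with the ratio covariate the difference was -0.30. Of all tested probe sets 255 rose and 303 fell there with the covariate, against 428 and 572 without it. In shoots at 1 h WRKY47 read 165, 137 and 194 at 10 kPa and 208, 242 and 311 at 97 kPa, again lower without overlap. The difference of -0.59 did not pass (limma adjusted p = 0.146). The share of all probe sets without overlap at a single time was not counted, so these separations are not read as differences.

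Few genes known to act with the WRKY family had a named probe set: 0 of 11 MAP kinase cascade genes, 0 of 11 camalexin and indole genes and 0 of 11 phosphate genes, 3 of 16 early defence genes, 2 of 20 jasmonate and ethylene genes, 1 of 19 salicylic acid genes, 1 of 11 senescence genes and 1 of 7 genes of VQ proteins, which bind WRKY factors. In shoots SAG29, a senescence-associated sugar transporter gene, rose at 6, 12, 48 and 72 h by 1.66, 2.01, 2.17 and 1.87. JMT, which encodes jasmonic acid methyltransferase, rose in shoots at all 6 times, by 2.42 to 3.80. At 72 h in shoots PDF1.2, a defensin, fell by 2.38, BIK1, a receptor-like cytoplasmic kinase of immune signalling, fell by 1.47 and STZ fell by 1.34. WRKY53 and WRKY22 fell in the same comparison, where 19.8% of all tested probe sets were called. In shoots at 48 and 72 h the 3′ to 5′ ratios of the 2 pressures did not overlap. These list genes were not examined with the ratio covariate. In roots PDF1.2 fell by 2.31 at 72 h. The VQ gene AT1G78410 rose by 1.15 late in control shoots, as WRKY53 and WRKY22 did. ZAP1, the family member WRKY1 listed under another symbol, passed at none of the 12 pressure comparisons. Its pressure difference over 6 times was smaller in roots than in shoots, with a log2 difference of -0.35 (limma adjusted p = 0.033), and at 97 kPa in roots it rose late by 0.63 (adjusted p = 0.0069). At 97 kPa it was higher in roots than in shoots by 0.66 (adjusted p = 1.6e-09).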

How the data were processed

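ATH1 arrays of roots and shoots were compared by pressure and time. The deposited table holds signal intensity per probe set, not log-transformed, and the submitters' processing notes name MAS5 and Affymetrix Expression Console as the authors' tools, with versions not given in the sources used here. The table was read as deposited, with a trimmed mean of 500 on each array (2% at each end). Signal was converted here to log2(signal + 8.90), the pseudocount being the 10th percentile of all values. A probe set was tested if it reached the 40th percentile of its array on at least 3 arrays of the fit. limma 3.58.1 in R 4.3.3 fitted 1 mean per pressure and time within each tissue (36 arrays, 24 residual degrees of freedom) and in both tissues together (72 arrays, 48), with trended empirical Bayes, two-sided tests and Benjamini-Hochberg adjustment. Probe sets were named by the annotation table, with locus tags and names from RefSeq (TAIR10.1), and 64 control probe sets were left out of the tests. The labels of single arrays give 101 kPa where other labels give 97 kPa. Each replicate of a group is a separate chamber, and 29 of 43 tubes supplied roots and shoots alike, for which the tube was tried as a random block. The number of arrays limits the precision.

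The members, lists, tests and alternatives were chosen with earlier results of these data known. Members named in the text are those called in a comparison, plus those whose groups did not overlap, which were chosen after their values were seen. The fits were tested on simulated data. Same-numbered arrays of the 2 pressures did not deviate together (36 pairs, correlation of deviations -0.048 to 0.086), so the numbers were not taken to pair the samples.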

Additional observations from a re-analysis of the deposited data

Results flagged for a closer look

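In shoots the pressure difference of WRKY53 at 48 and 72 h was below that at 1 and 3 h by a log2 difference of -2.01 (limma interaction contrast, adjusted p = 0.00033), and of the 6 single times in shoots only 72 h was called. For WRKY22 in shoots the same contrast was -1.61 (adjusted p = 0.002), from no called difference to lower. The GAPDH 3′ to 5′ ratio was higher at 10 kPa in the late shoot groups, and its part in these results was not tested beyond the covariate fit, in which the contrast of WRKY22 was not called. In that fit 334 of all tested probe sets rose and 442 fell in this contrast, against 1220 and 1650 without the covariate.

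Between tissues, the pressure difference of WRKY22 was larger in roots than in shoots by 1.23 over all 6 times and by 1.17 over 1 to 12 h. That of WRKY53 over 1 to 12 h was smaller in roots by a log2 difference of -0.86 (limma adjusted p = 0.00557). Over all 6 times WRKY53 differed by -0.20 and did not pass (limma adjusted p = 0.49). The contrast over 1 to 12 h was added after the values were seen. Of all tested probe sets 19.5% were called in it, and 25.9% over all 6 times.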

How the results depend on the processing

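Calls in single comparisons rested on few arrays, whereas the called mean differences over 1 to 12 h, the contrast of the pressure difference between tissues for WRKY22 and the late against early contrast of WRKY53 in shoots were called under every alternative run. The means over 1 to 12 h were added after the values were seen, and the alternatives reuse the same arrays. Of all tested probe sets 25.5% in roots and 25.8% in shoots were called in these means. With the 3′ to 5′ ratio as a covariate, 0 members were called in roots at 6 h and in shoots at 48 and 72 h, 1 in roots at 12 h, 1 for late against early pressure in shoots, 1 for late against early at 97 kPa in roots, 2 for roots against shoots over 6 times and 2 for level, and WRKY47 turned to -0.57 for level. Of all tested probe sets, 230 rose and 258 fell with the covariate in shoots at 48 h, against 1637 and 2113 without it. In shoots at 72 h the counts were 453 and 545 against 1473 and 1657, and for level 3692 and 2234 against 9492 and 4802. In roots at 6 h they were 775 and 768 against 765 and 766, and in roots at 12 h 946 and 1078 against 943 and 1058. For roots against shoots over 6 times they were 966 and 1277 against 1991 and 2638. Counts over all probe sets were not made for the other alternatives except quantile normalization. In the fits of 6 arrays alone 1 member was called in roots at 3 h and 12 h, 2 in roots at 6 h, and 1 in shoots at each of 3, 6, 12 and 48 h. Without the 48 and 72 h arrays 1 member was called in roots at 12 h and 1 in shoots at each early time. With the replicate block, which the numbers do not warrant, 1 was called in roots at 12 h and 1 in shoots at 6 h. A higher pseudocount gave 1 in roots at 12 h, 1 for late against early pressure in roots and 2 for roots against shoots. A stricter filter gave 1 in roots at 12 h and 1 in shoots at 6 h, and no filter gave 0 in roots at 6 h and 1 in shoots at 48 h. Quantile normalization gave 1 in shoots at 48 h, where 1935 of all tested probe sets rose and 1947 fell, against 1637 and 2113 in the main fit. Without the 4 arrays numbered apart, 0 were called in shoots at 72 h and 1 at 6 h. Leaving out 1 array at a time gave 0 to 2 calls in roots at 1 h, 0 to 1 in roots at 6 h, in roots at 12 h, in roots late against early and in shoots at 6 h, 2 to 3 in roots at 97 kPa late, and 1 to 2 in shoots at 48 h, in shoots at 72 h and between tissues.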
